A study of Mus musculus with 6 samples.

Results

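The genes described here carry IL-6 and IL-1 signals into the liver: *Il6ra*, *Il6st*, *Jak1*, *Stat3*, *Socs3*, *Il1r1*, *Il1rn*, *Il1b*, *Nfkbiz* and *Cebpd*. They were chosen by symbol, as receptors, STAT3 pathway genes and feedback genes of the IL-6 and IL-1 cascades, and 10 of 10 were found among the 16123 genes of the deposited comparison. Livers of wild type (WT) mice were compared with livers of *Txndc5*-deficient (KO) mice. *Txndc5* encodes a protein disulfide isomerase of the endoplasmic reticulum. The WT mice were labelled as strain C57BL/6Rj. The KO mice, C57BL/6JRj-Txndc5<em2Mdnp>/Ciba, carried a whole-body CRISPR-Cas9 deletion of the third exon, in a line from a single founder, so that the loss of the protein was neither limited to hepatocytes nor tested in a separate line. All mice were males born of heterozygous crosses, 2 months old when they started a purified chow diet of 4 weeks, and were fasted for 16 h before the livers were taken and washed with PBS. Polyadenylated RNA was sequenced from 3 WT and 3 KO pools, each made from equal amounts of RNA of 3 mice.

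IL-6 binds the IL-6 receptor (*Il6ra*) on hepatocytes, the pair recruits the shared signal chain gp130 (*Il6st*), and the kinase JAK1 then phosphorylates STAT3, which enters the nucleus and switches on acute phase genes together with its own inhibitor *Socs3*. IL-1 binds the IL-1 receptor (*Il1r1*) and works through MyD88 and NF-kB, and the receptor antagonist *Il1rn* occupies the same receptor without starting a signal. Acute phase genes of class 1, such as serum amyloid A, answer best to both cytokines together, whereas those of class 2, such as the fibrinogen genes, answer to IL-6 alone.

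Promoter sequences show what these factors could read near the start of the genes. RefSeq promoters (GRCm38.p6, 250 bases before and 50 bases after a transcription start) were found for 8 of the 10 genes, in 11 windows, and both strands were searched for the STAT motif TTCNNNGAA, the C/EBP motif TTNNGCAAN and the NF-kB motif. The 3 windows below are shown because they belong to the STAT3 feedback gene and to the receptor and the antagonist of IL-1. *Socs3* (chr11:117969317-117969616, minus strand) held a STAT motif that begins 154 bases before the start, and *Il1r1* (chr1:40224830-40225129, plus strand) held a C/EBP motif 134 bases before the start. The matches are in capitals, and the window of *Il1rn* (chr2:24336610-24336909, plus strand) held none of the 3 motifs.
Socs3: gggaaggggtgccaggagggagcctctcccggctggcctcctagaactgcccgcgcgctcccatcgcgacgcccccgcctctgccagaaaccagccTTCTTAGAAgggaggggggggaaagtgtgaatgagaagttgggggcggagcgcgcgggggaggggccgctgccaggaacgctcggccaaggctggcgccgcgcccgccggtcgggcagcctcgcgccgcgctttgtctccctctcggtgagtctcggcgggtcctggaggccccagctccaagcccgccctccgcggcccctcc
Il1r1: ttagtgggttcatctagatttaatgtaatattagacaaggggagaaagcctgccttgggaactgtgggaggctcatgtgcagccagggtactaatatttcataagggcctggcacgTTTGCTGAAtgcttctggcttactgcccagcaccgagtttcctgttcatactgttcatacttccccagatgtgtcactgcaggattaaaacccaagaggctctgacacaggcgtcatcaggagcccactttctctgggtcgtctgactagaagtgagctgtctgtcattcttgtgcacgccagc
Il1rn: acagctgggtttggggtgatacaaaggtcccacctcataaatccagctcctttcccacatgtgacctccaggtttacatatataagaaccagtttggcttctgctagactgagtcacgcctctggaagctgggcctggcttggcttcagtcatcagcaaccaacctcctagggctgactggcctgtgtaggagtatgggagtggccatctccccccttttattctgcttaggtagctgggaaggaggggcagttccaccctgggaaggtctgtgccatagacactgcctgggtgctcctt

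Among all 32851 promoters of the table, 8.30% held the STAT motif, 10.8% the C/EBP motif and 8.46% the NF-kB motif. A second start of *Il1r1* (chr1:40266336-40266635) held an NF-kB motif 232 bases before it. The other 2 windows of *Il1rn* and those of *Il6ra*, *Il6st*, *Jak1*, *Stat3* and *Il1b* held none. A match describes the letters of a window and not the binding of a factor.

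The deposited gene table holds 1 value per genotype, the authors' value, on the scale of normalized reads (reads divided by a size factor of each library). A genotype's value is not the plain mean of its libraries. For *Il1rn* it was 46.2 in WT and 91.4 in KO, whereas the libraries had means of 42.5 and 95.1 normalized reads. For weakly expressed genes the whole reads of the 6 libraries were recovered from these values, and the libraries are called a, b and c within each genotype in order of falling size factor, since they could not be tied to the numbered pools. Library a of WT stood apart, with the highest normalized reads of all 6 libraries in 40.0% of 3307 genes whose normalized reads summed to between 60 and 400. Library a of KO was the highest in 13.2% of these genes. Within each genotype, library a was the highest KO library in 53.6% and the highest WT library in 54.6% of them. The libraries held 44040160 to 46050030 clean reads, and KO (45.7 ± 0.356 M reads, SD, n = 3) and WT (44.7 ± 1.08 M reads, SD, n = 3) overlapped (two-sided exact permutation test, p = 0.3). The size factors ran from 0.818 (WT library c) to 1.31 (KO library a), a wider range than that of the clean reads. *Txndc5* had an authors' value of 2697 in WT and 90.8 in KO, 29.4-fold lower in KO. The 7 hepatocyte markers in the table had authors' values of at least 24961 in both genotypes. Of these, 6 were lower and 1 was higher in KO, and their sum in KO was 0.909 times that in WT.

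Across the IL-6 and IL-1 genes, no member was 2-fold higher or lower in KO livers on the log2((KO + 1)/(WT + 1)) scale of the authors' values. The antagonist *Il1rn* came nearest (1.96-fold higher, and 2.24-fold higher in its recovered reads), and *Il6ra* was 1.52-fold higher. The log2 ratio was above 0 for 8 members and below 0 for 2, *Il1b* and *Nfkbiz*, with a median of 0.18. Of all genes, 11367 had a mean value over the genotypes of 10 or more (expressed genes, among them all 10 members), and their median was -0.047, with 42.3% above 0. In that background 0.158% of genes were 2-fold higher and 0.66% were 2-fold lower in KO, and 1.43% were 1.5-fold higher and 5.34% were 1.5-fold lower. Per kilobase of transcript, the authors' values in WT ran from 293 for *Stat3* and 203 for *Cebpd* through 161 for *Jak1*, 160 for *Il6st* and 104 for *Il6ra* to 54.2 for *Socs3*, 29.1 for *Il1r1*, 18.8 for *Il1rn*, 12.3 for *Il1b* and 6.29 for *Nfkbiz*. In WT the transducers *Stat3* and *Jak1* were among the 3 highest, and *Il1r1*, *Il1rn* and *Il1b* among the 4 lowest. *Jak1* and *Il6st* were close, and in KO *Il6st* (181) lay above *Jak1* (173). The authors' values have no spread, so these ratios are descriptions. For the 3 members with recovered reads they lay nearer to 0 than the log2 fold of the reads, taken without a pseudocount. The pairs were 0.97 against 1.16 for *Il1rn*, -0.23 against -0.38 for *Il1b* and -0.18 against -0.31 for *Nfkbiz*. In the 247 genes whose recovered means differed by at least 2-fold, the median size of the log2 difference was 1.22 from the reads and 0.83 from the authors' values. The direction was the same in all 247. These genes were picked by their reads, so the sizes do not measure the gap over all genes.

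**Figure D1:**
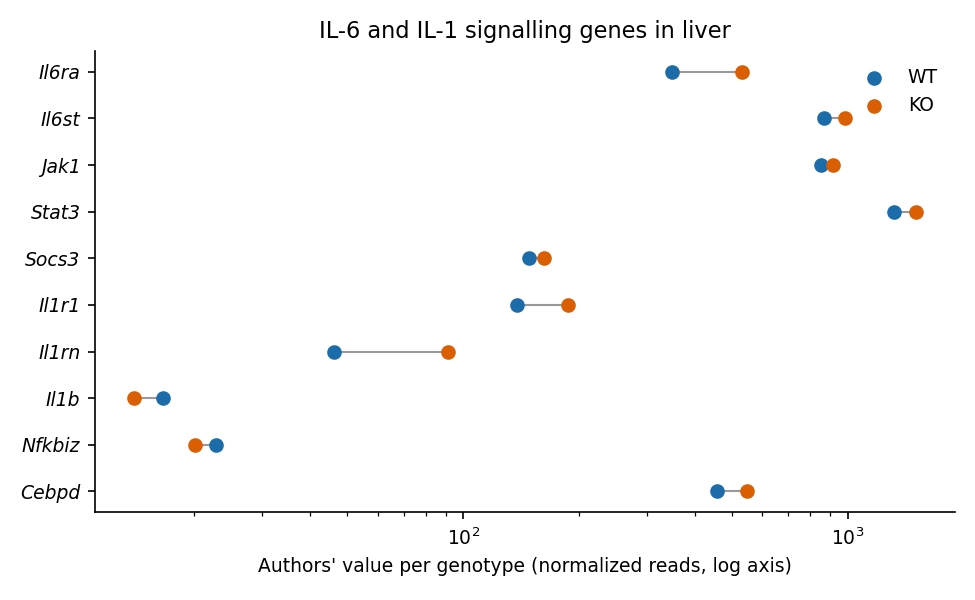
Authors' values per genotype, in normalized reads on a log axis, for the 10 IL-6 and IL-1 signalling genes, with WT in blue, KO in orange and a line joining the pair. KO lies to the right of WT for 8 genes, furthest for *Il1rn* (46.2 in WT and 91.4 in KO), and to the left for *Il1b* and *Nfkbiz*.

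On the ligand side, IL-6 transcripts were near the limit of detection in both genotypes. *Il6* had 1 read in KO library b, 1 read in WT library a and 0 reads in the other 4 libraries. The related cytokines oncostatin M (*Osm*) and leukemia inhibitory factor (*Lif*) had 5 and 2 reads over all 6 libraries. Of the 7 IL-6 family ligands in the table, only *Ctf1* (cardiotrophin 1) and *Ebi3* (a subunit of IL-27 and IL-35) passed a mean value of 10, with log2 ratios of 0.26 and 0.045. Depth limits any comparison of *Il6*, *Osm* and *Lif*, and no difference was detectable at these counts.

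*Il1b*, the main secreted IL-1, was read in every library at a low level. It lies on chromosome 2 (GRCm38.p6, 129364569 to 129371164). Libraries a, b and c of KO had 26, 16 and 4 reads, and those of WT had 24, 11 and 16 reads. Normalized, these were 19.8, 15.4 and 4.52 in KO and 19.6, 12.5 and 19.6 in WT. The genotypes overlapped, and the lowest library was KO library c, whose 4 reads have an exact Poisson interval (95%) of 1.09 to 10.2 reads. The means were 13.3 ± 7.88 in KO and 17.2 ± 4.08 in WT (SD, n = 3 each), a difference smaller than the spread between libraries (two-sided exact permutation test, p = 0.7, where 0.1 is the smallest p that 3 against 3 libraries allow). Without KO library c the sign of the difference turned (0.405 normalized reads higher in KO).

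*Il1a*, the other agonist of the IL-1 receptor, had 24, 5 and 0 reads in KO and 35, 9 and 2 reads in WT. Library a was the highest in both genotypes. Of the 5 expressed IL-1 ligand and processing genes, 0 were 2-fold higher or lower, and the median log2 ratio was -0.23. The inflammasome adaptor *Pycard* (-0.36), *Il1a* (-0.36) and *Il1b* (-0.23) had the largest ratios.

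Among the receptors of the IL-6 family, *Il6ra* was the member that stood furthest from 0. *Il6ra* (chromosome 3, 89869324 to 89913196) had authors' values of 349 in WT and 533 in KO (log2 ratio 0.61). Of the expressed genes, 1.26% had a ratio at least as high. The signal chain *Il6st* (chromosome 13, 112464070 to 112506860), which IL-6 family cytokines share, had 870 in WT and 986 in KO (log2 ratio 0.18). Per kilobase of transcript, the authors' values in KO were 158 for *Il6ra* and 181 for *Il6st*, nearer to each other than in WT.

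Of the 11 expressed IL-6 family receptor and shedding genes, 0 were 2-fold higher or lower, 6 lay above 0 and 5 below, with a median log2 ratio of 0.060. After *Il6ra* the largest ratios were those of *Adam10*, a protease that sheds the IL-6 receptor (-0.35), and of the CNTF receptor *Cntfr* (-0.34). The normalized reads of *Adam10* were 104, 33.8 and 27.1 in KO and 161, 34.1 and 36.7 in WT. Library a was the highest in both genotypes, and the genotypes overlapped. The oncostatin M receptor *Osmr* had 21.3, 19.3 and 12.4 normalized reads in KO and 23.7, 10.2 and 8.56 in WT, again with overlap.

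The receptor of IL-1 and its antagonist lay on the same side of 0. *Il1r1* (chromosome 1, 40222480 to 40316201) had authors' values of 138 in WT and 187 in KO (log2 ratio 0.44), and 3.60% of expressed genes had a ratio at least as high. *Il1rn* (chromosome 2, 24336860 to 24351491) had authors' values of 46.2 in WT and 91.4 in KO (log2 ratio 0.97), and 0.185% of expressed genes had one at least as high. The accessory chain *Il1rap*, without which the receptor does not signal, had a log2 ratio of -0.22. Of the 5 expressed IL-1 receptor and decoy genes, 0 were 2-fold higher or lower and the median log2 ratio was 0.12.

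The reads of *Il1rn* were recovered in every library, from a sum of 413 normalized reads. In that range, above 400, 491 of 979 genes were resolved. KO libraries a, b and c had 152, 109 and 57 reads, and WT libraries a, b and c had 58, 48 and 21 reads. Divided by the size factors, these were 116, 105 and 64.4 normalized reads in KO and 47.4, 54.6 and 25.7 in WT. Every KO library lay above every WT library, by the smallest gap between KO library c and WT library b. Their 57 and 48 reads have exact Poisson intervals (95%) of 43.2 to 73.9 and 35.4 to 63.6 reads, which overlap. The means were 95.1 ± 27.2 in KO and 42.5 ± 15.05 in WT (SD, n = 3 each), 2.24-fold higher in KO, with p = 0.1 in the two-sided exact permutation test, the smallest p that the design allows.

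Of the 3798 genes whose recovered reads summed to between 60 and 600, 3.16% had every KO library above every WT library and 2.42% had every KO library below. Among the 27 IL-6 and IL-1 pathway genes with such reads, 1 was above (*Il1rn*) and 0 were below, a share of 3.70% that is near the background. In limma over those 3798 genes, 1 gene, *Moap1*, which is no pathway member, passed an adjusted p of 0.05 (0.0263% of genes). The log2 difference of *Il1rn* there was 1.17 (SE 0.45), with an unadjusted p of 0.0297 and an adjusted p of 0.999, so that it did not pass. Without library a of both genotypes, *Il1rn* was 84.8 in KO and 40.1 in WT, 2.11-fold higher, and the genotypes still did not overlap.

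**Figure D2:**
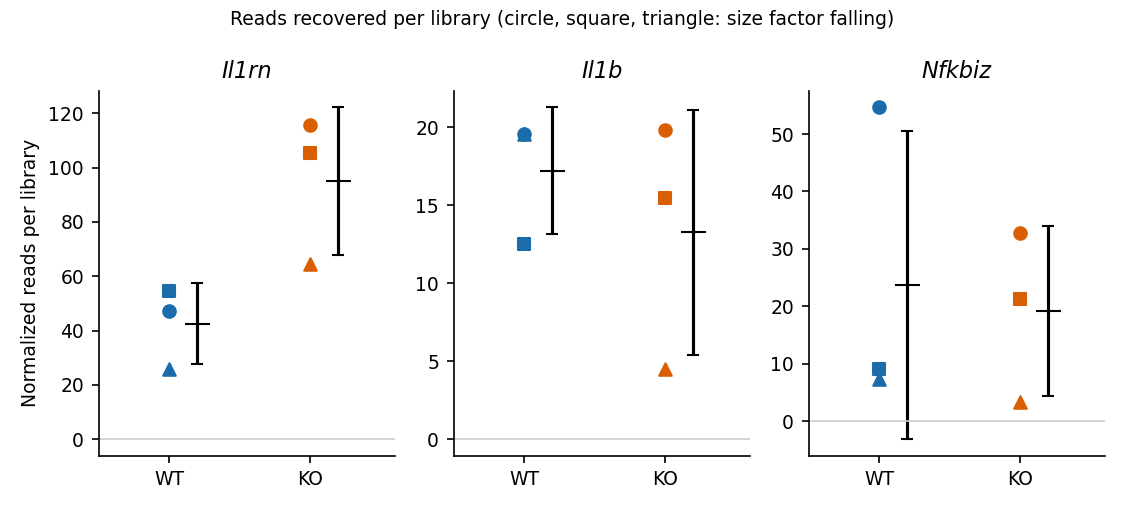
Normalized reads per library of the 3 members whose reads were recovered, with WT in blue and KO in orange; circles, squares and triangles are libraries a, b and c, and the bars give the mean ± SD of 3 libraries. The KO libraries of *Il1rn* (64.4 to 116) lie above its WT libraries (25.7 to 54.6), whereas the genotypes overlap for *Il1b* and *Nfkbiz*.

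Immune cells and hepatocytes can both express *Il1rn*, and in bulk RNA more cells of a type and more RNA per cell cannot be told apart. The 15 neutrophil and monocyte markers had a summed authors' value of 72.3 in WT and 81.0 in KO, and only 2 of them passed a mean value of 10. The mean of normalized reads was higher in KO for 8 of the 15 and lower for 7. Their summed normalized reads were 77.0, 75.3 and 96.0 in KO libraries a, b and c, against 63.7, 79.6 and 68.5 in the WT libraries (exact permutation p = 0.3). The neutrophil genes *S100a8* and *Ly6g* were near 0, at most 4.89 and 3.67 normalized reads in any library. Other markers had more reads. *Csf3r* had means of 29.5 ± 8.59 normalized reads in KO and 24.3 ± 0.919 in WT (SD, n = 3 each). The means of *S100a9* were 6.78 in KO and 4.31 in WT, and those of *Cxcr2* 6.29 and 3.64. The genotypes overlapped for *Csf3r*, *S100a9* and *Cxcr2*. The 7 markers with a lower mean in KO included *Ly6c2* (5.74 in KO and 6.98 in WT). KO library c had the highest sum of the 15 markers.

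The 12 Kupffer cell and macrophage markers were all measured, with no marker at 0, a summed authors' value of 5843 in WT and 6515 in KO, and log2 ratios from -0.051 to 0.61 around a median of 0.17. The 3 of them with recovered reads summed to 187, 147 and 238 normalized reads in KO libraries a, b and c. In the WT libraries these sums were 125, 179 and 142, with overlap (exact permutation p = 0.2). Red cell genes were higher in KO in 6 of 6, with a summed value of 118830 in WT and 180430 in KO. The red cell gene *Slc4a1* had 28.2, 108 and 287 normalized reads in KO and 21.2, 35.3 and 47.7 in WT, and the genotypes overlapped. Its reads were settled by the direction of the authors' values. The 9 lymphocyte markers in the table summed to 122 in WT and 95.3 in KO. Their summed normalized reads were 96.0, 78.2 and 98.2 in KO libraries a, b and c. In the WT libraries these were 75.9, 111 and 192, with overlap (exact permutation p = 0.5). The part of these cell types in the *Il1rn* and *Il1b* values was not tested.

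The kinase and the transcription factor of the IL-6 cascade had close values in the genotypes. *Jak1* (chromosome 4, 101151974 to 101265282) had authors' values of 854 in WT and 919 in KO (log2 ratio 0.10). *Stat3* (chromosome 11, 100886806 to 100939594), the most abundant member, had 1324 in WT and 1504 in KO (log2 ratio 0.18). Of the 10 JAK kinase and STAT factor genes, 0 were 2-fold higher or lower, 8 lay above 0 and 2 below, and the median log2 ratio was 0.063. The largest ratios were those of *Stat5a* (0.39), a transducer of growth hormone signals, and *Jak2* (-0.28). Phosphorylation of STAT3 was not measured by these libraries.

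*Socs3*, the inhibitor that STAT3 induces and whose promoter window holds the STAT motif printed above, had authors' values of 149 in WT and 162 in KO (log2 ratio 0.12), and lies on chromosome 11 (117966079 to 117970336). Of the expressed genes, 25.1% had a ratio at least as high. Of the 14 expressed JAK-STAT inhibitors, 0 were 2-fold higher and 1 was 2-fold lower, *Socs2*, an inhibitor of growth hormone signalling (265 in WT and 125 in KO, log2 ratio -1.07). The phosphatase *Ptpn2*, which acts on JAK1 and STAT3, had the next largest ratio (-0.60), followed by the phosphatase *Ptpn11* (0.32). *Ptpn2* had 61.0, 27.0 and 24.8 normalized reads in KO and 90.6, 60.3 and 40.4 in WT. KO library a lay above WT libraries b and c, and the limma difference of -0.79 (SE 0.50) had an adjusted p of 0.999. The median log2 ratio of the 14 inhibitors was -0.0091.

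Downstream of IL-1, *Nfkbiz*, which encodes the inducible nuclear cofactor IkB-zeta, was low and varied more within than between genotypes. It lies on chromosome 16 (55811375 to 55838954), and its authors' values were 22.8 in WT and 20.03 in KO. KO libraries a, b and c had 43, 22 and 3 reads, and WT libraries a, b and c had 67, 8 and 6 reads. These were 32.8, 21.2 and 3.39 normalized reads in KO and 54.7, 9.10 and 7.34 in WT. Library a was the highest in both genotypes, and the means of 19.1 ± 14.8 in KO and 23.7 ± 26.9 in WT (SD, n = 3 each) differed by less than the spread between libraries (two-sided exact permutation test, p = 0.8). Without library a of both genotypes, *Nfkbiz* was 12.3 in KO and 8.22 in WT, so that the direction turned.

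In limma over the 3307 genes with sums between 60 and 400, of which 0.0302% (1 gene, *Moap1*) passed an adjusted p of 0.05, *Il1b* had a log2 difference of -0.53 (SE 0.55) and *Nfkbiz* of -0.17 (SE 0.91), each with an adjusted p of 0.999. Per kilobase of transcript, the normalized reads of *Il1rn* were 17.3 ± 6.13 in WT, those of *Il1b* 12.8 ± 3.03 and those of *Nfkbiz* 6.54 ± 7.41 (SD, n = 3). These neighbours in the order of levels overlapped in WT. In KO, *Il1rn* (26.2 to 47.2) lay above *Il1b* (3.35 to 14.7) and *Nfkbiz* (0.934 to 9.04), and the latter genes overlapped.

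*Cebpd*, a C/EBP factor that IL-6 and IL-1 induce in hepatocytes, lies on chromosome 16 (15887286 to 15889545) and had authors' values of 458 in WT and 548 in KO (log2 ratio 0.26). Of the expressed genes, 11.7% had a ratio at least as high. Of the 12 C/EBP and AP-1 factors that were expressed, 0 were 2-fold higher or lower, with a median log2 ratio of 0.064. *Cebpe*, a myeloid C/EBP factor, had the largest ratio (0.74), followed by *Jund* (-0.43) and *Jun* (0.35). The normalized reads of *Cebpe* were 48.8, 68.5 and 86.9 in KO and 32.7, 48.9 and 28.1 in WT, where KO library a and WT library b were almost equal, and limma gave a log2 difference of 0.88 (SE 0.43, adjusted p = 0.999).

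The transducers between the receptor of IL-1 and NF-kB had no gene past 2-fold. Of 14 IL-1 signal transducers, 8 lay above 0 and 6 below, with a median log2 ratio of 0.0089 and the largest ratios in *Tollip* (0.58), which restrains IRAK1, and *Tab3* (-0.41) and *Chuk* (-0.38), which serve the activation of NF-kB. Of 12 NF-kB factors and inhibitors that were expressed, 4 lay above 0 and 8 below, with a median of -0.078, led by *Nfkb2* (-0.38), the RNase gene *Zc3h12a* (0.38) and *Nfkbib* (-0.37).

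Among the target genes, 4 of class 1 and 0 of class 2 passed 2-fold. Of 15 expressed class 1 acute phase genes, 4 were 2-fold higher in KO and 0 were lower (0.158% and 0.66% of all expressed genes), with a median log2 ratio of 0.23. These were *Saa2* (3.76), *Saa1* (3.13), *Lcn2* (1.42) and *Orm2* (1.23), and *Il1rn*, itself counted in this class, came next (0.97). *Saa1* and *Saa2* are near-identical copies, and how reads that match both were counted is not given in the sources used here, so that their separate values are uncertain. Of 18 expressed class 2 genes, 0 were 2-fold higher or lower, with a median of 0.066 and ratios from -0.37 (*Fga*, a fibrinogen chain) to 0.45 (*Steap4*, a metalloreductase). *Stat3*, *Socs3* and *Cebpd* are counted in this second class. The difference between the classes was not tested.

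**Figure D3:**
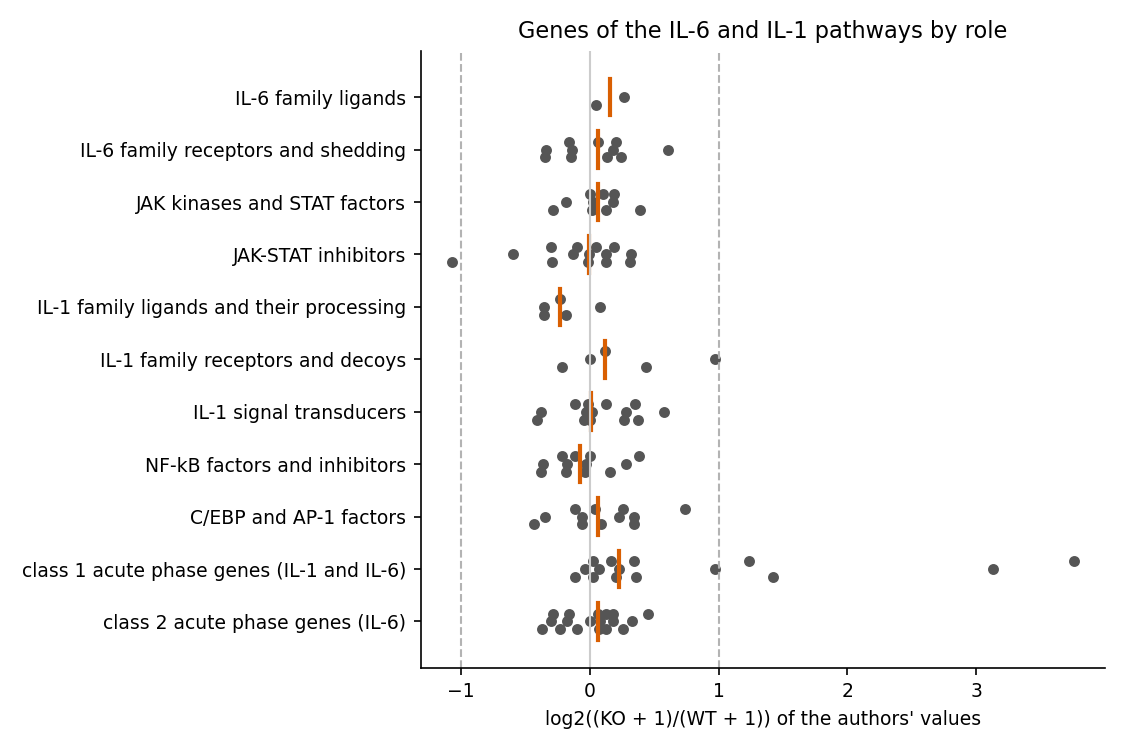
Log2((KO + 1)/(WT + 1)) of the authors' values, 1 point per expressed gene (mean value of 10 or more), for 11 lists of IL-6 and IL-1 pathway genes; orange bars give the list median and dashed lines mark 2-fold. List medians lie between -0.23 (IL-1 family ligands and their processing) and 0.23 (class 1 acute phase genes), and 4 class 1 genes lie above 1 whereas *Socs2* among the inhibitors lies below -1.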

How the data were processed

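Liver RNA of 3 WT and 3 KO pools was sequenced, grouped by the genotype in the sample titles. The authors deposited 1 normalized signal per genotype for each gene, read totals as counts per library, and mapping rates as percent values. The log2 ratios of their own comparison (DESeq2) and its p-values, deposited by the authors in the same table, were not used. Build mm10 and the tools HISAT2, StringTie, Cufflinks, GATK, Bowtie2 and RSEM are named in the submitters' processing notes, without versions. Coordinates are from RefSeq GRCm38.p6, matched by gene identifier.

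The ratio of the authors' values was taken with a pseudocount of 1, over genes with a mean of at least 10. The mean of both genotype values equals the mean over libraries of reads divided by size factor. Whole reads of 6 libraries were therefore enumerated for sums up to 600, with the worth of 1 read taken from values that at least 20 genes share and each library assigned to a genotype by the direction of those genes. A single set of reads was found for 8063 of 8081 genes (99.8%) with sums up to 400 and for 491 of 979 above, 17 of the latter by direction. The reads of 7 members, whose lowest sum is 932, were not recovered. *Il1rn* had 1 set of reads, with a sum of 413 that lies above 400. Whether the recovery holds in that upper range was not tested. The recovery was run in Python 3.11.15, and the fits in limma 3.58.1 and R 4.3.3 (log2(normalized reads + 1), Benjamini-Hochberg adjustment). Nothing states whether same-numbered pools are related, and p-values measure the spread between pools. Counting intervals cover counting error only.

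The genes named are the 10 members, *Txndc5*, and in each list the genes past 2-fold and the 3 with the largest ratios. A gene that this rule would name is not reported here. Genes with recovered reads in the ligand, receptor and inhibitor lists could also be named, and *Moap1*, *Cebpe* and single marker genes were named after their values were seen. The members and lists (143 genes in 11 pathway lists, and 8 lists of cell types) were chosen with earlier results of these data known. The fit with sums up to 600 and the values without library a were also added after seeing the data.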

Additional observations from a re-analysis of the deposited data

How the results depend on the processing

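No paired analysis was possible because the WT and KO pools share only 1 number, and recovered libraries carry none. With a pseudocount of 10, 9 genes were 2-fold higher in KO and 29 lower (18 and 75 with a pseudocount of 1). At 1.5-fold these were 163 and 607 over all genes, 2 members higher (*Il6ra* and *Il1rn*), and 7 pathway genes higher and 2 lower. Centred on the median of all genes, 1 member, *Il1rn*, passed 2-fold. The median of the IL-6 family ligands turned to -0.081 with a mean value of at least 1, a filter that admits more ligands with few reads. Under the other pseudocounts and centring, the log2 ratios of the 10 members kept their direction, and that of *Il1rn* fell to 0.85 with a pseudocount of 10. The number of genes with an adjusted p under 0.05 in limma ranged from 0 to 1 when a library was left out, and it was 0 without KO library a, b or c or WT library b or c. At an unadjusted p under 0.05 limma found 63 genes, between 26 and 152 with a library left out, and 242 with a term for library a. The difference of KO and WT in normalized reads ranged from 42.3 to 68.0 for *Il1rn*, from -7.24 to 0.405 for *Il1b* and from -12.8 to 10.9 for *Nfkbiz* when each library was left out, and the sign turned for *Il1b* without KO library c and for *Nfkbiz* without KO library c or WT library a. The log2 difference of *Il1rn* in limma was 0.85 to 1.42 with each library left out, with an adjusted p of at least 0.968, and its adjusted p was 0.545 with a term for library a. Clean reads differed by 0.718 to 1.66 M with each pool left out. Depth limits *Il6*, *Il1b* and *Nfkbiz*, and no spread between pools was obtained for the 7 other members.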

Other observations

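The balance of antagonist to agonist was read within each library, where the size factor cancels. *Il1rn* had 5.85, 6.81 and 14.2 times the reads of *Il1b* in KO libraries a, b and c, against 2.42, 4.36 and 1.31 times in the WT libraries. Every KO ratio lay above every WT ratio, with means of 8.97 ± 4.60 and 2.70 ± 1.54 (SD, n = 3 each) and p = 0.1 in a two-sided exact permutation test, the smallest p that 3 against 3 allow. The highest ratio, in KO library c, rests on 4 reads of *Il1b*. Summed over the libraries, 318 reads of *Il1rn* stood against 46 of *Il1b* in KO and 127 against 51 in WT. This ratio was chosen after the values of both genes had been seen. *Il1rn* by itself already had every KO library above every WT library. The ratio and its p are therefore no second result beside that of *Il1rn*.

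Among the neutrophil and monocyte markers, the granule protease *Mmp9* had a mean of 13.9 ± 3.32 normalized reads in KO and 7.79 ± 4.03 in WT (SD, n = 3 each). The genotypes overlapped, with 10.2 in KO library c and 11.0 in WT library c. *Retnlg* had 3, 6 and 5 reads in KO libraries a, b and c and 2, 2 and 0 in the WT libraries. The elastase gene *Elane* lay the other way, with 3, 2 and 3 reads in KO and 6, 4 and 5 in WT, and the last pair of genes has too few reads to rest a difference on. The scavenger receptor *Marco* of Kupffer cells had 52.6, 49.2 and 130 normalized reads in KO and 13.9, 69.4 and 48.9 in WT, with the genotypes overlapping. The serum amyloid gene *Saa3* had 29, 79 and 96 reads in KO and 46, 43 and 70 reads in WT, also with overlap, and its log2 ratio from the authors' values was 0.20.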
